A study of Rattus norvegicus with 12 samples.

Results

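The basement membrane genes described here are Col4a1, Col4a2, Col4a5, Col15a1, Col18a1, Nid1, Nid2, Hspg2, Lama4 and Lamb1. They encode collagen IV, XV and XVIII chains, nidogens, perlecan and laminin chains, and were read from the deposited tables by symbol. These members and the gene lists below were chosen with earlier results of these data known. Counts set beside the share of all genes are therefore descriptions. All 10 were found among the 22850 features of the tables and all had enough counts to be tested. RNA was sequenced from atrial fibroblasts of 1- to 3-day-old Sprague-Dawley rats, which had been separated from heart muscle cells by how fast they attach to a dish and were not sorted further. One group of 4 libraries received angiotensin II (AngII) at 1 μmol/L for 48 h. A second group of 4 was pretreated for 1 h with HNG at 10 μmol/L, an analogue of the mitochondria-derived peptide humanin. The remaining 4 libraries were pretreated for 1 h with MOTS-c at 5 μmol/L, another peptide encoded by mitochondrial DNA. Both groups then received AngII together with the peptide for 48 h. Every group carried AngII and 2% FBS, so the comparisons ask how each peptide changed the AngII-treated state, and untreated cells were not analysed here.

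A basement membrane is a thin sheet of matrix that underlies epithelia and endothelia and wraps each cardiomyocyte and smooth muscle cell. Laminin trimers assemble at the cell surface on integrins and dystroglycan, collagen IV trimers form a covalently crosslinked network, and nidogens and the heparan sulfate proteoglycan perlecan hold both networks together. In the heart, fibroblasts secrete much of the collagen IV, nidogen and perlecan of this sheet, and collagen IV is among the matrix products that angiotensin II and TGF-β raise in cardiac fibrosis.

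The upstream sequences of 3 members are shown because the results turn on these genes, namely Col4a1 and Nid1, which were lower with HNG, and Lama4, whose HNG values all lay above those of AngII. They were taken from RefSeq windows of the rat build GRCr8, which reach from 250 bases before to 50 bases after each gene's start, and 9 of the 10 members had a window. The Col4a1 and Col4a2 genes start 77 bases apart on chromosome 16 and run in opposite directions, so the bases between their starts lie upstream of both. The other collagen IV genes have the same head-to-head arrangement, with the starts of Col4a3 and Col4a4 413 bases apart on chromosome 9 and those of Col4a5 and Col4a6 1415 bases apart on chromosome X. In the lines that follow, capitals mark GC boxes (GGGCGG, or CCGCCC on the other strand), CCAAT boxes (CCAAT or ATTGG) and TATA boxes (TATAAA or TTTATA). The first line holds the 76 bases between the starts of Col4a2 and Col4a1 (chr16:84885521-84885596, plus strand), the second the 250 bases before Nid1 (chr17:93069036-93069285, plus strand) and the third the 250 bases before Lama4 (chr20:43946648-43946897, plus strand).
Col4a1: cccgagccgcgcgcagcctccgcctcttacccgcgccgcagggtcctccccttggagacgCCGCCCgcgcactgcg
Nid1: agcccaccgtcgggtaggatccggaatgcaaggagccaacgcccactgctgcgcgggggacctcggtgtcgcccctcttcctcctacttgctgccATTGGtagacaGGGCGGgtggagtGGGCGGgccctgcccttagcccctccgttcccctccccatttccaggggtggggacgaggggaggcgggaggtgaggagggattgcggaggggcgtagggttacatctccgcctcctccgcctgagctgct
Lama4: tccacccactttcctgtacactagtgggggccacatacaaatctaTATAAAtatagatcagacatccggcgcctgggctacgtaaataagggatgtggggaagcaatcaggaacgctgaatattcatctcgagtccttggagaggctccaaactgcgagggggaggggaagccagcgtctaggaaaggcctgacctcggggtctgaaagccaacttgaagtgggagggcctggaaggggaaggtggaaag

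Among the 9 windows of 300 bases, a GC box was found in 7, in all but those of Lama4 and Col15a1, and in 33.1% of all 33469 rat promoter windows. A CCAAT box was present in the windows of Col4a1, Col4a2 and Nid1 and in 37.5% of all windows. The Col4a1 and Col4a2 windows overlap, and the GC box printed between their starts lies in both, so these 2 windows are not independent. Whether their CCAAT boxes share letters was not examined. Lama4 was the only one of the 9 with the letters of a TATA box, which 14.2% of all windows hold. The letters were matched anywhere in a window, and in Lama4 they lie at the end far from the start. Whether they act as a TATA box was not tested. The CArG box, the serum response factor motif of many contractile genes, was in none of the 9 windows and in 1.64% of all. The GC content was 75.0% in the Col4a1 window, 66.3% in that of Nid1 and 55.0% in that of Lama4, against a median of 51.7% over all windows.

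The libraries held 27960586 to 38322354 counts, and the 10 genes together took 1.70% to 1.89% of them. Levels are given as CPM, counts scaled to the same library total, in which the limit set by a count of 0 (3 counts, counting error only) was 0.0783 to 0.107, far below every member. Between libraries of one group the chi-square statistic per gene was 4.30 to 18.5, where counting noise alone would give about 1, so no pair within a group looked like 1 library deposited again. AngII+HNG replicate 3 stood apart, with at least 13.7 against each other library of its group, whereas all other pairs stayed at or under 8.65. The p-values measure only the spread between these libraries, which may be partly technical, since the names of replicates 2 and 3 share a number in every group. Fibroblast markers were abundant in all libraries, with a summed level of 12032 to 13589 FPKM (counts scaled to gene length and library total) over 10 genes. Markers of cardiomyocytes were present too, at 4209 to 5525 FPKM over 10 genes, so the RNA was not from fibroblasts alone.

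The level of the members, compared per length in FPKM, spanned 92.2-fold in AngII-treated fibroblasts. Col4a1 was the most abundant at 982 ± 16.1 FPKM (SD, n = 4), followed by Col4a2 at 691 ± 8.65 FPKM. These genes encode the chains of the common collagen IV trimer and together made up 63.6% of the summed FPKM of the 10 members. Nid1, which links laminin to collagen IV, came next at 396 ± 9.81 FPKM, and its relative Nid2 was the lowest of all at 10.7 ± 0.606 FPKM. Between them lay Hspg2 (perlecan) at 168 ± 6.48 FPKM, Lamb1 (the laminin β1 chain) at 137 ± 1.30 FPKM and Col18a1 (the source of endostatin) at 83.9 ± 4.56 FPKM. Col15a1, a collagen of the outer face of the basement membrane in muscle and vessels, followed at 65.0 ± 6.23 FPKM, then Lama4 (the laminin α4 chain of vessels and mesenchymal cells) at 54.7 ± 1.22 FPKM and Col4a5 (a chain of less widespread collagen IV trimers) at 42.2 ± 1.05 FPKM. In AngII no neighbours in this order had overlapping values. The order was the same in the other groups, except that Col18a1 and Col15a1 overlapped with HNG (84.4 to 94.2 and 70.3 to 90.8 FPKM) and Col15a1 and Lama4 with MOTS-c (54.2 to 73.9 and 50.5 to 58.1 FPKM).

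**Figure D1:**
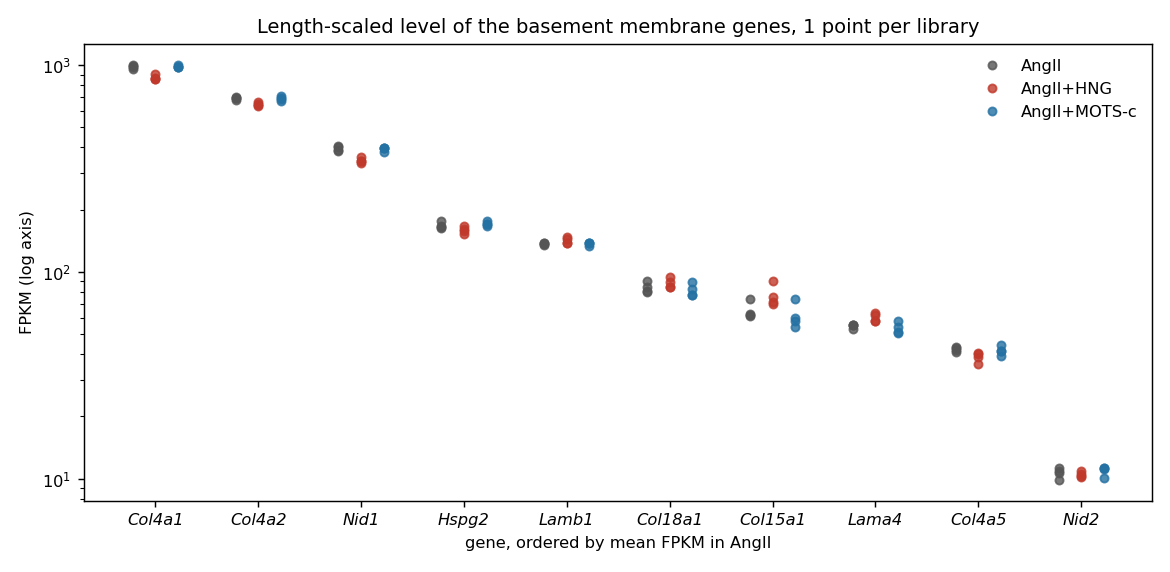
Level of each member in FPKM (log axis), 1 point per library, with the genes ordered by their mean in AngII and the groups side by side in grey (AngII), red (AngII+HNG) and blue (AngII+MOTS-c), n = 4 each. Col4a1 and Col4a2 stand at the top and Nid2 at the bottom in all groups, and the red points of Col4a1 and Nid1 lie below the other points of the same gene.

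With HNG, Col4a1 and Nid1 fell relative to AngII alone, by 12.1% and 13.8%, and no member rose past the threshold. The test was edgeR's quasi-likelihood test on the counts, with p-values adjusted by Benjamini-Hochberg over all 14524 genes tested and a threshold of 0.05. These 2 of 10 members stand beside 5.98% of all genes called in this comparison, and 2.58% called lower. The groups did not overlap for 5 members, against 13.6% of all genes, and 4 of these were lower with HNG (6.46% of all genes). Unadjusted p-values were under 0.05 for 7 members, against 20.3% of all genes. The median log2 fold change of the 10 members was -0.07 (all genes 0.00). The signs were mixed, with 4 positive and 6 negative, but none of the positive ones passed the threshold. This test did not pair the replicates, and with a block for the replicate number 5 members were called, 1 of them higher.

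Col4a1 encodes the α1 chain that every common collagen IV trimer contains. Its normalised level in the AngII libraries was 6915, 6795, 6641 and 6865 CPM, in the order of the replicates. With HNG it was 6240, 5900, 5860 and 5873 CPM, and with MOTS-c 6909, 6736, 6786 and 6757 CPM. All 4 HNG libraries lay below all 8 others, while the AngII and MOTS-c libraries covered the same range. The log2 fold change of HNG against AngII was -0.19 (SE 0.033, 95% interval -0.26 to -0.11, adjusted p = 0.00583). In bulk RNA a lower level per cell and a smaller share of cells that express the gene cannot be told apart, here and for each gene that follows.

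Nid1 showed a difference of the same size. It stood at 2544, 2419, 2517 and 2453 CPM in the AngII libraries, at 2222, 2127, 2068 and 2127 CPM with HNG and at 2482, 2472, 2480.5 and 2376 CPM with MOTS-c. Again the 4 HNG libraries were the lowest of the 12. The log2 fold change against AngII was -0.21 (SE 0.035, 95% interval -0.29 to -0.14, adjusted p = 0.00343). Nid2 was at 49.2 to 56.3 CPM in AngII and at 50.4 to 53.2 CPM with HNG, ranges that overlap (log2 fold change -0.04, 95% interval -0.15 to 0.06, adjusted p = 0.699).

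Both calls held when any of the 8 libraries was left out in turn. On log2(FPKM + 1) with limma, Nid1 stayed past the threshold and Col4a1 did not (log2 fold change -0.17, adjusted p = 0.0572).

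**Figure D2:**
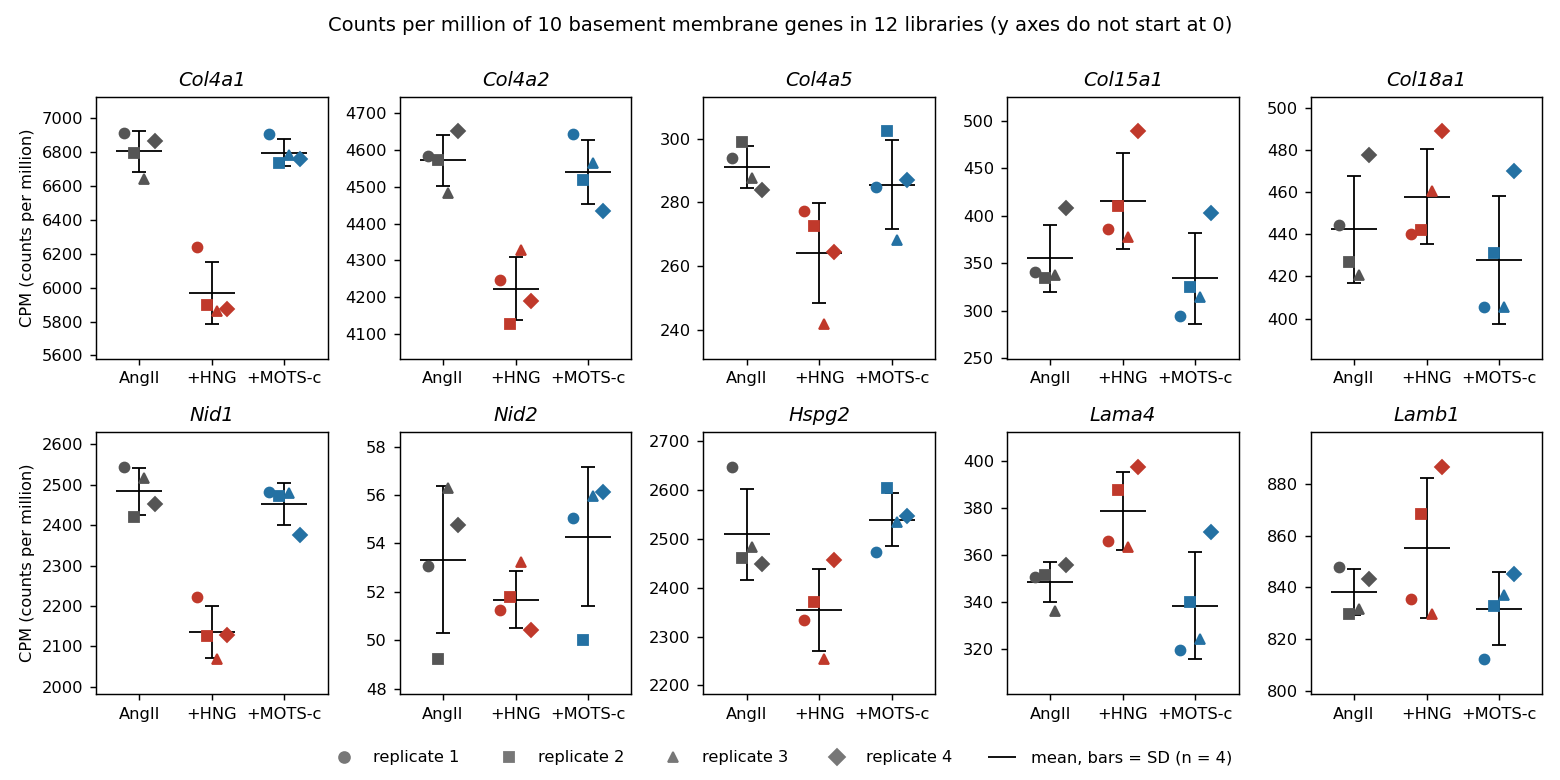
Normalised level in CPM of the 10 members in each of the 12 libraries (1 panel per gene, y axes not starting at 0). Symbols give the replicate number, and the horizontal line and bars the mean and SD (n = 4). The HNG libraries lie below all others for Col4a1 and Nid1, and replicate 4 (diamonds) is the highest of each group for Col15a1, Col18a1 and Lama4.

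The partner chains of collagen IV had lower values with HNG that missed the threshold in edgeR's test on the 8 libraries, although some alternatives called them. Col4a2 stood at 4583, 4573, 4483 and 4651 CPM in AngII, at 4247, 4128, 4328 and 4189 CPM with HNG and at 4644, 4519, 4566 and 4435 CPM with MOTS-c. The HNG libraries were again the lowest of the 12, but the log2 fold change was smaller, at -0.11 (SE 0.032, 95% interval -0.18 to -0.04, adjusted p = 0.0590). Without AngII+HNG replicate 3, the library that stood apart, the log2 fold change of Col4a2 was -0.13 with an adjusted p of 0.0219, and without any other single library it missed the threshold (adjusted p up to 0.153). The joint fit of 12 libraries (0.0234) and DESeq2 (0.00106) called Col4a2 as well. Col4a5 was at 284 to 299 CPM in AngII and at 242 to 277 CPM with HNG, which did not overlap, with a log2 fold change of -0.14 (SE 0.044, adjusted p = 0.0925; DESeq2 0.0281).

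Since Col4a1 and Col4a2 share their upstream bases and their products assemble together, their ratio was followed within each library. The FPKM ratio of Col4a1 to Col4a2 was 1.44, 1.42, 1.42 and 1.41 in AngII, 1.40, 1.37, 1.29 and 1.34 with HNG and 1.42, 1.42, 1.42 and 1.46 with MOTS-c. All HNG libraries lay below the 8 others, and AngII+HNG replicate 3 was the lowest of them. The ratio of Nid1 to Nid2 was 35.6 to 39.2 in AngII, 31.0 to 34.6 with HNG and 33.8 to 39.4 with MOTS-c, so the HNG values overlapped those of MOTS-c but not those of AngII. These ratios are given as a description with no test.

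**Figure D3:**
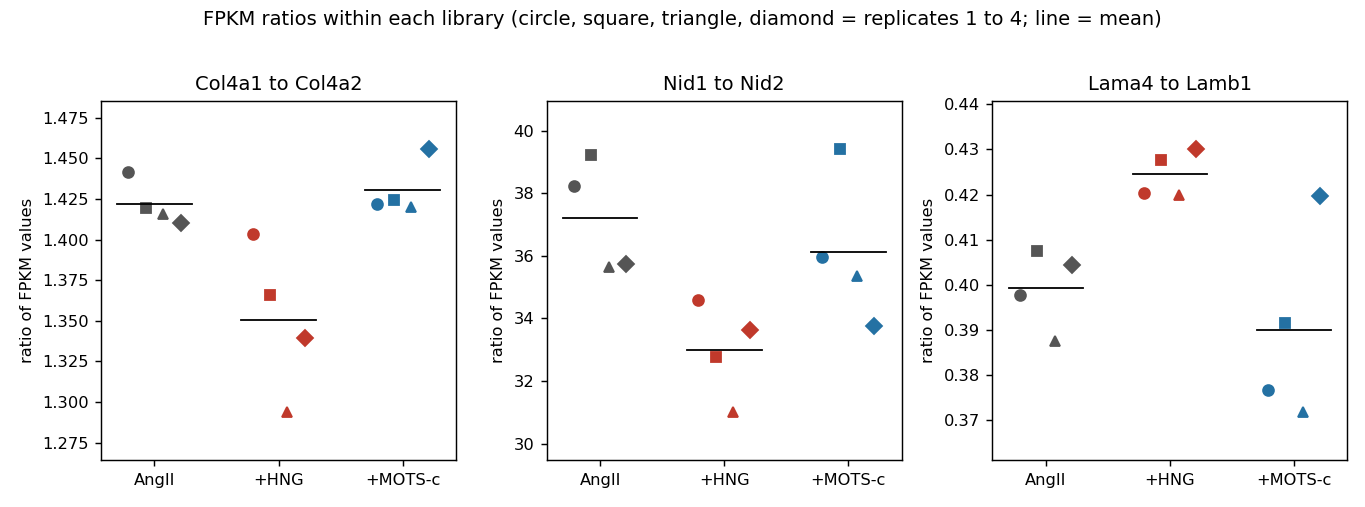
Ratio of FPKM values within each library for Col4a1 to Col4a2, Nid1 to Nid2 and Lama4 to Lamb1 (1 point per library, y axes not starting at 0, line = mean of 4). The HNG libraries are the lowest for Col4a1 to Col4a2, at 1.29 to 1.40, and lie at 0.420 to 0.430 for Lama4 to Lamb1, above all AngII libraries and level with MOTS-c replicate 4.

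The nonfibrillar collagens XV and XVIII, which carry glycosaminoglycan chains and lie next to the collagen IV network, were not lower with HNG. Col15a1 was at 341, 335, 338 and 408 CPM in AngII, at 387, 410, 378 and 489 CPM with HNG and at 294, 325, 314 and 404 CPM with MOTS-c. Replicate 4 was the highest library of every group, and AngII replicate 4 reached into the range of the HNG libraries. The log2 fold change was 0.23 (SE 0.082, 95% interval 0.05 to 0.41, adjusted p = 0.132). Without replicate 4 of both groups it was 0.22 with an adjusted p of 0.0217, and without AngII replicate 4 alone it was 0.30 with an adjusted p of 0.0390. Omission of any other single library left it short of the threshold, down to 0.14 without AngII+HNG replicate 4 (adjusted p = 0.287). With a block for the replicate number Col15a1 was called at 0.23 (edgeR, adjusted p = 0.00313), as with a block for the library-name number (0.00290). With replicates 2 and 3 summed it was 0.23 and missed the threshold (adjusted p = 0.227). Col18a1 was likewise highest in replicate 4 of every group and ranged from 421 to 477 CPM in AngII and from 440.0 to 489 CPM with HNG (log2 fold change 0.05, 95% interval -0.05 to 0.16, adjusted p = 0.620).

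Perlecan, the large proteoglycan encoded by Hspg2, ranged from 2448 to 2647 CPM in AngII and from 2254 to 2456 CPM with HNG. These ranges overlapped, with a log2 fold change of -0.09 (SE 0.039, 95% interval -0.17 to -0.01, adjusted p = 0.214). Of the laminins, Lama4 stood at 366, 387, 363 and 398 CPM with HNG, at 351, 352, 336 and 356 CPM in AngII and at 319.5, 340.0, 324 and 369.9 CPM with MOTS-c. All HNG libraries lay above all AngII libraries, but AngII+MOTS-c replicate 4 was higher than HNG replicates 1 and 3. The difference from AngII, a log2 fold change of 0.12 (SE 0.040, 95% interval 0.03 to 0.21), missed the threshold with an adjusted p of 0.102, and DESeq2 gave 0.0443. Without AngII+HNG replicate 3 it was 0.14 with an adjusted p of 0.0446, and without any other single library it missed the threshold, down to 0.10 without AngII+HNG replicate 4 (adjusted p = 0.225). Lamb1, the β chain that pairs with α4 in laminin trimers, was at 829.8 to 848 CPM in AngII and at 829.6 to 887 CPM with HNG (log2 fold change 0.03, 95% interval -0.04 to 0.11, adjusted p = 0.689). The FPKM ratio of Lama4 to Lamb1 was 0.387 to 0.407 in AngII, 0.420 to 0.430 with HNG and 0.372 to 0.420 with MOTS-c, and in MOTS-c only replicate 4 came near the HNG values.

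With MOTS-c, the values of all 10 members overlapped those of AngII. No member passed the threshold or had an unadjusted p-value under 0.05, and DESeq2 called none either. Of all 14488 genes tested, 1 gene was called (0.0069%), 5.05% had an unadjusted p-value under 0.05 and 3.5% did not overlap. Log2 fold changes of the members ran from -0.09 for Col15a1 to 0.03 for Nid2, with adjusted p-values of 0.943 to 0.999 in edgeR's quasi-likelihood test. The intervals show what could have gone unseen: for Col4a1 the log2 fold change was -0.00 with a 95% interval of -0.06 to 0.06, and for Nid1 -0.02 with -0.08 to 0.05. For Col15a1, the member that varied most between libraries, the interval was wider, from -0.27 to 0.10.

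The direct comparison of the peptides asks whether the members differed between HNG and MOTS-c, and it uses the HNG libraries again. It called the same 2 members, both lower with HNG, of 10 tested, against 4.41% of 14448 genes called and 1.77% called lower. Col4a1 differed by a log2 fold change of -0.19 (SE 0.036, adjusted p = 0.00974) and Nid1 by -0.20 (SE 0.037, adjusted p = 0.00907) in edgeR's quasi-likelihood test. The groups did not overlap for 4 members (12.7% of all genes), which were Col4a1, Col4a2, Nid1 and Hspg2, all lower with HNG (6.26% of all genes), and 7 members had an unadjusted p-value under 0.05 (19.3% of all genes).

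The other members gave differences between the peptides that missed the threshold in edgeR's test on the 8 libraries, while DESeq2 called Col4a2 (adjusted p = 0.00830), Hspg2 (0.0284) and Lama4 (0.0386) and the joint fit of 12 libraries Col4a2 (0.0400) and Lama4 (0.0459). Hspg2 was at 2254 to 2456 CPM with HNG and at 2473 to 2603 CPM with MOTS-c (log2 fold change -0.11, SE 0.038, adjusted p = 0.133). Col15a1 had the widest difference, a log2 fold change of 0.31 (SE 0.096, adjusted p = 0.0898), which was 0.42 with an adjusted p of 0.0138 when AngII+MOTS-c replicate 4 was left out and 0.33 with an adjusted p of 0.00992 without replicate 4 of both groups. With any other single library left out Col15a1 missed the threshold, down to 0.23 without AngII+HNG replicate 4 (adjusted p = 0.196), and with a block for the library-name number it was 0.29 (adjusted p = 0.0135). Lama4 differed by 0.16 (SE 0.051, adjusted p = 0.102), and by 0.21 with an adjusted p of 0.0290 without AngII+MOTS-c replicate 4. Without any other single library it missed the threshold, down to 0.13 without AngII+MOTS-c replicate 1 (adjusted p = 0.268). The median over the members was -0.09, against 0.00 over all genes.

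**Figure D4:**
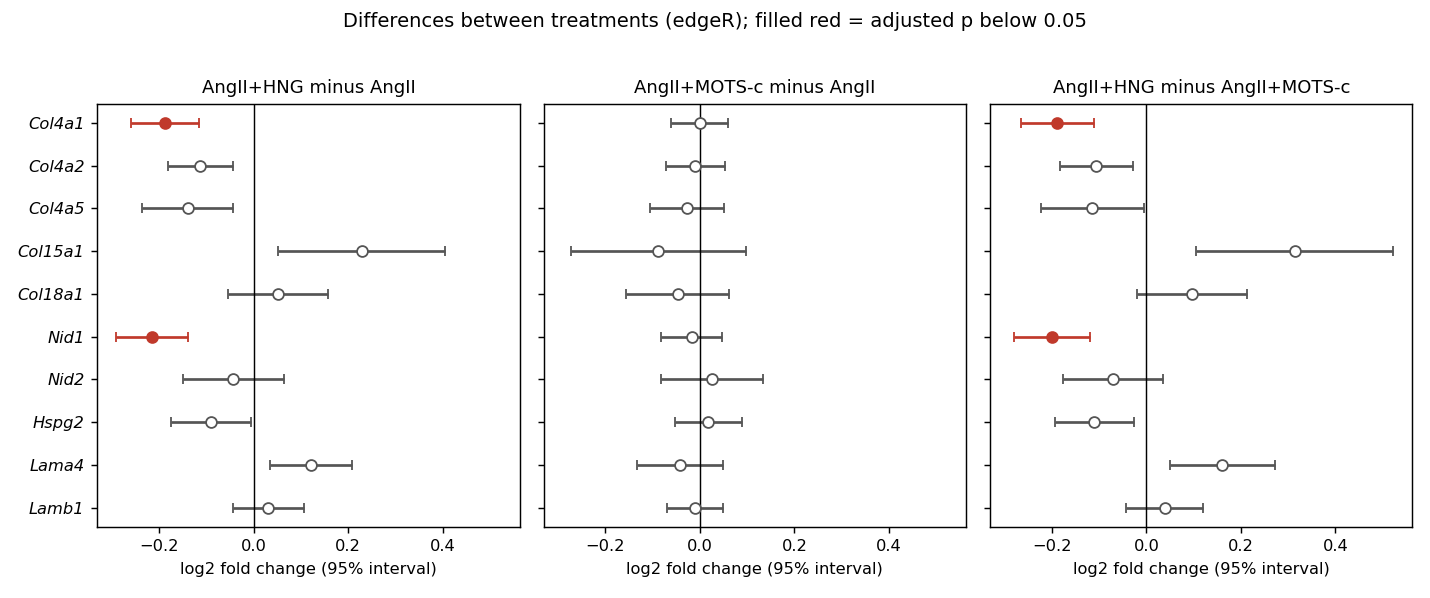
Log2 fold changes of the 10 members with 95% intervals in the 3 comparisons (edgeR, n = 4 libraries per group), with filled red points for an adjusted p below 0.05. Col4a1 and Nid1 are called lower with HNG against both other groups (-0.19 and -0.21 against AngII), and all MOTS-c intervals against AngII include 0.

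Across the 12 libraries the log2 CPM of Nid1 had the highest Pearson correlation with that of Col4a1 among the members (r = 0.962, 9th of 14685 genes), whereas by Spearman's rho Col4a2 (0.902) was closer than Nid1 (0.769). By Pearson r Col4a2 came 73rd (r = 0.921), Col4a5 726th (r = 0.750) and Hspg2 852nd (r = 0.727). Nid2 was at r = 0.363, whereas r was negative for Col18a1 (-0.44), Lamb1 (-0.56), Col15a1 (-0.66) and Lama4 (-0.74). Spearman's rho was weaker for these genes, at -0.29 for Col18a1, -0.12 for Lamb1, -0.49 for Col15a1 and -0.60 for Lama4. The 5 genes closest to Col4a1 were Filip1l, a relative of a filamin-binding protein (r = 0.976), Ets1, a transcription factor (r = 0.973), Wls, the carrier of secreted Wnt proteins (r = 0.970), Syde2 (r = 0.969) and F2r, a thrombin receptor (r = 0.968). The 12 points share the lower HNG group, so these values describe the libraries and carry no test.

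Among the other collagens of basement membranes, Col4a3 rose with HNG and was the one called of 4 tested, beside 5.98% of all genes. Col4a3 encodes a chain of the specialised collagen IV of kidney and lung, and stood at 3.84 ± 0.361 FPKM in AngII and 5.84 ± 0.456 FPKM with HNG (SD, n = 4). Its log2 fold change was 0.59 (SE 0.071, adjusted p = 5.51e-04), opposite in sign to that of Col4a1 and from a far lower level. Its head-to-head neighbour Col4a4 gave 0.33 (SE 0.117, adjusted p = 0.129) and Col4a6, the neighbour of Col4a5, gave -0.23 (95% interval -0.39 to -0.07), and both missed the threshold.

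Of 11 other laminin chains and netrins, 2 rose and 1 fell with HNG, beside 3.4% of all genes called higher and 2.58% lower. Lama2, the α chain of muscle laminin, rose from 41.7 ± 1.16 to 55.4 ± 2.35 FPKM (log2 fold change 0.39, SE 0.040, adjusted p = 2.02e-04). Lama5, the α chain of most adult epithelial and endothelial basement membranes, fell from 32.6 ± 1.19 to 27.8 ± 1.16 FPKM (log2 fold change -0.25, SE 0.042, adjusted p = 0.00448). Lamb3, a chain of epidermal laminin, rose from a low level (log2 fold change 0.27, SE 0.056, adjusted p = 0.0121). Lamc1, the γ chain that most laminin trimers share, was the most abundant of these chains at 219 ± 5.72 FPKM in AngII and 238 ± 9.01 FPKM with HNG, and missed the threshold (log2 fold change 0.11, SE 0.038, adjusted p = 0.129). Without AngII+HNG replicate 3 the count of called genes in this group was 5, of which 4 rose.

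Among 14 tested of 15 other basement membrane proteins, 2 rose and 2 fell with HNG, where 5.98% of all genes were called. Fbln1 (fibulin-1) gave a log2 fold change of 0.46 (adjusted p = 0.0146) and Frem1 0.28 (adjusted p = 0.0324). Smoc1, a SPARC-related protein, fell by 0.35 on the log2 scale (adjusted p = 0.00148) and Tinagl1 by 0.14 (adjusted p = 0.0448). Agrn (agrin) at 0.06 (adjusted p = 0.445) and Sparc, a collagen IV-binding protein, at -0.02 (adjusted p = 0.819) missed the threshold. Smoc1 alone stayed past the threshold whichever library was left out. Fbln1 lost its call without AngII replicate 1 or 2 (adjusted p 0.0624 to 0.0653), Frem1 without 6 of the 8 libraries (0.0716 to 0.111) and Tinagl1 without 7 (0.0757 to 0.139).

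Of 12 receptors that bind basement membrane, 3 fell with HNG and none rose, where 2.58% of all genes were called lower. These were Itga6 (the laminin-binding integrin α6; log2 fold change -0.25, SE 0.043, adjusted p = 0.00482), Itga1 (the collagen IV-binding integrin α1; -0.21, SE 0.047, adjusted p = 0.0185) and Itgb1 (the β1 chain shared by both; -0.20, SE 0.037, adjusted p = 0.00853). Itgb1 was at 991 ± 28.1 FPKM in AngII and 876 ± 32.6 FPKM with HNG. Dag1 (dystroglycan), the non-integrin laminin receptor, gave -0.08 (adjusted p = 0.356). The call of Itga1 was lost without AngII replicate 1, AngII replicate 3 or AngII+HNG replicate 2 (adjusted p 0.0533 to 0.0690), and that of Itgb1 with limma on log2(FPKM + 1) (0.0641).

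Of 15 genes for modifying, secreting and crosslinking collagen chains, 3 fell with HNG and none rose, beside 2.58% of all genes called lower. Pxdn (peroxidasin), which forms the sulfilimine crosslinks of collagen IV, fell from 119 ± 3.12 to 97.9 ± 3.40 FPKM (log2 fold change -0.30, SE 0.038, adjusted p = 6.62e-04). Loxl2, a lysyl oxidase that also acts on collagen IV, gave -0.22 (SE 0.038, adjusted p = 0.00433) and P4ha1, a prolyl hydroxylase subunit, -0.15 (SE 0.040, adjusted p = 0.0468). Serpinh1, the collagen chaperone HSP47, gave -0.12 (adjusted p = 0.121) and, without AngII+HNG replicate 3, -0.16 with an adjusted p of 0.0132. Without that library 6 genes of this group were called, all lower, whereas P4ha1 lost its call without any 1 of 7 libraries (adjusted p 0.0714 to 0.142).

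Of 9 genes that build or edit heparan sulfate, the sugar chains of perlecan, 2 rose and 1 fell with HNG. Of all genes, 5.98% were called. Sulf2, an extracellular sulfatase, gave a log2 fold change of 0.38 (SE 0.040, adjusted p = 2.02e-04), and Hpse (heparanase) 0.78 (SE 0.135, adjusted p = 0.00519) from a mean of 1.80 CPM. On log2(FPKM + 1), which compresses low levels, the difference of Hpse was 0.34 (limma, adjusted p = 0.00657). Ext1, a chain polymerase, gave -0.14 (adjusted p = 0.0373) and lost its call without any 1 of 7 libraries (adjusted p 0.0642 to 0.119).

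Of 15 tested genes for basement membrane proteolysis, 7 rose and 1 fell with HNG, where 3.4% of all genes were called higher. Mmp2 (gelatinase A), which cleaves collagen IV, rose from 298 ± 12.5 to 372 ± 16.7 FPKM (log2 fold change 0.30, SE 0.044, adjusted p = 0.00161). Adamts5 gave 0.40 (SE 0.036, adjusted p = 1.20e-04), and the lysosomal cathepsins Ctsb 0.39 (adjusted p = 0.00832), Ctss 0.37 (adjusted p = 0.0127) and Ctsl 0.31 (adjusted p = 5.75e-04). Plau, the urokinase-type plasminogen activator, gave 0.44 (SE 0.099, adjusted p = 0.0187), and the inhibitor Timp2 rose as well (0.20, adjusted p = 0.0151). Adamts1 fell by 0.17 on the log2 scale (adjusted p = 0.0304). The count was 4, all higher, without AngII replicate 1 and 5, all higher, without AngII replicate 2. Plau lost its call without either of these or without AngII+HNG replicate 4 (adjusted p 0.0559 to 0.0797), and Ctss without AngII replicate 1 (0.0568). The median log2 fold change with HNG was 0.20 for the proteolysis list, 0.19 for the other collagens, 0.11 for the laminins, 0.07 for heparan sulfate, -0.01 for the receptors, -0.02 for the other proteins and -0.06 for collagen modification, beside 0.00 over all genes.

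**Figure D5:**
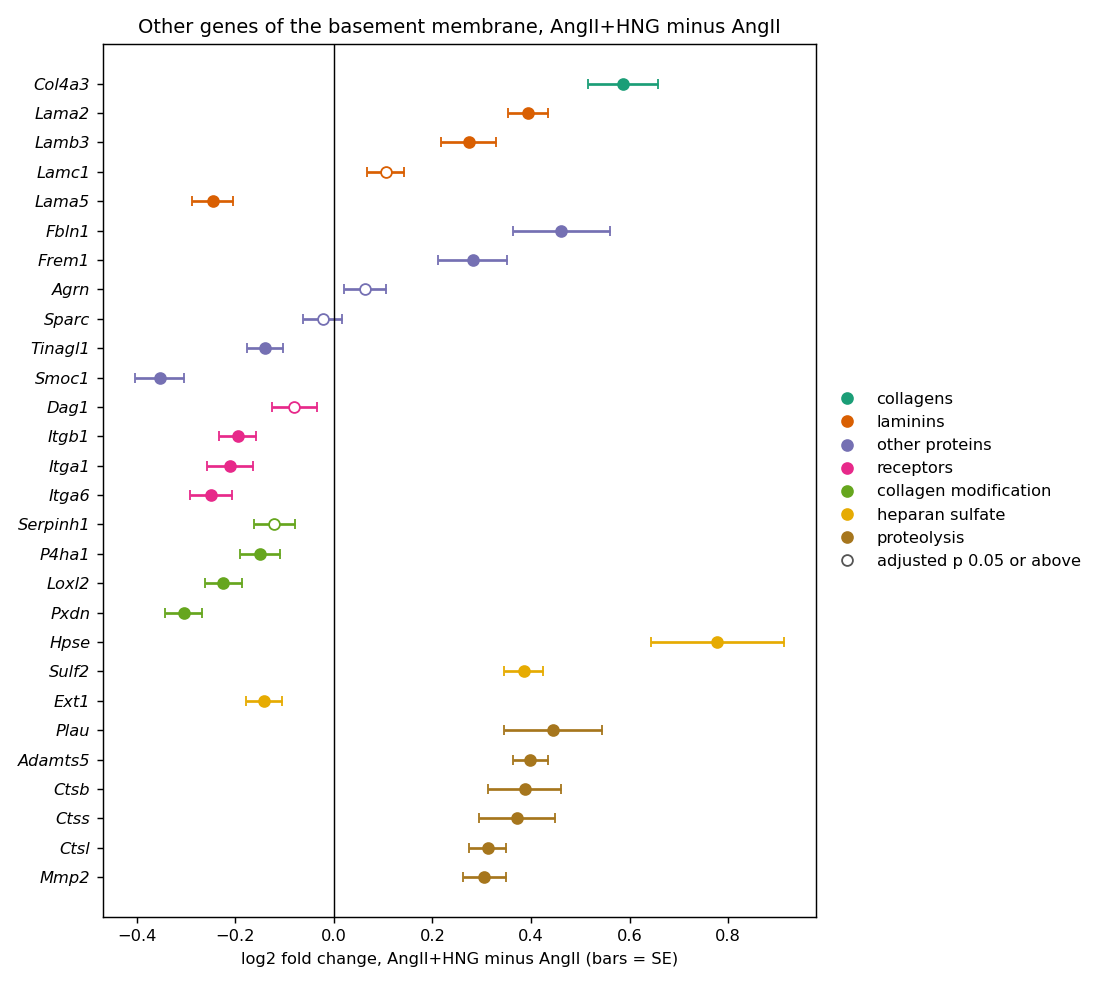
Log2 fold changes of the other named basement membrane genes, AngII+HNG minus AngII, with SE bars (n = 4 libraries per group), coloured by the 7 lists. Open points had an adjusted p of 0.05 or above. The plotted genes are those the naming rule took, not whole lists. The 6 proteolysis genes shown lie between 0.30 and 0.44, while 5 of the 15 tested in that list were negative (Adamts1 among them, not drawn), and the 4 receptors shown lie below 0, while 6 of 12 tested were positive.

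With MOTS-c against AngII, 0 genes of these 7 lists passed the threshold in edgeR's quasi-likelihood test, and for the receptors Itgb1 gave a log2 fold change of -0.04 (adjusted p = 0.939), for collagen crosslinking Pxdn 0.03 (adjusted p = 0.953) and for proteolysis Mmp2 -0.06 (adjusted p = 0.939). Between HNG and MOTS-c, 6 proteolysis genes were called higher with HNG and none lower, where 2.64% of all genes were called higher. The same 3 integrin genes were called lower, where 1.77% of all genes were. They were Itga1 at -0.26 (adjusted p = 0.00810), Itga6 at -0.24 (adjusted p = 0.00984) and Itgb1 at -0.16 (adjusted p = 0.0421). Of the collagen modification genes, Pxdn (-0.33, adjusted p = 8.33e-04), Loxl2 (-0.19, adjusted p = 0.0476) and Plod2, a lysyl hydroxylase (-0.21, adjusted p = 0.0169), were lower, and Col4a3 (0.49, adjusted p = 0.00666), Lama2 (0.36, adjusted p = 0.00311) and Lama5 (-0.21, adjusted p = 0.0109) kept the signs they had against AngII.

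Some markers of other cell types moved with HNG too, where 3.4% of all genes were called higher and 2.58% lower. Of 12 smooth muscle and pericyte markers, 6 fell, among them Acta2 (log2 fold change -0.29, adjusted p = 7.27e-04) and Cnn1 (-0.41, adjusted p = 1.26e-04), and their summed level was 4234 to 4702 FPKM with HNG against 5225 to 5456 FPKM in AngII and 5020.0 to 5442 FPKM with MOTS-c. Acta2, Tagln and Cnn1 are also expressed by activated fibroblasts. Of 10 endothelial markers, 4 rose and none fell past the threshold, with 8 positive and 2 negative in sign. Their summed level went from 20.6 to 23.6 FPKM in AngII to 26.4 to 29.1 FPKM with HNG, beside 21.3 to 23.5 FPKM with MOTS-c. The endothelial count was 2 without AngII replicate 1, AngII replicate 2, AngII+HNG replicate 2 or AngII+HNG replicate 4, and 1 without replicate 4 of both groups. Of 9 tested macrophage markers, 4 rose past the threshold, with 7 positive and 2 negative in sign. The summed level of the macrophage markers went from 136 to 165 FPKM in AngII to 198 to 263 FPKM with HNG, beside 135 to 165 FPKM with MOTS-c. Adgre1 went the other way, at a mean of 1.00 FPKM in AngII and 0.778 FPKM with HNG. Of the 10 fibroblast markers, 2 rose and none fell, and of 10 cardiomyocyte markers 1 rose, but the fibroblast count was 1 without AngII replicate 1, AngII replicate 3 or AngII+HNG replicate 2, and the cardiomyocyte count 0 without AngII replicate 1, 2 or 3. No Schwann cell marker of 5 tested and 1 epicardial marker of 8 was called, with summed levels of 8.27 to 9.12 and 22.0 to 25.6 FPKM with HNG. No marker gene was at 0 in all 12 libraries. The part of these shifts in the differences of Col4a1, Nid1 and the other genes was not tested.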

How the data were processed

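The 12 libraries, made with the Hieff NGS Ultima Dual-mode mRNA kit, were sequenced from both ends on a DNBSEQ platform. The submitters' processing notes name HISAT2, Picard 1.41 and SAMtools 0.1.18, while the counter, the use of strand and the build are not given in the sources used here. The authors deposited whole-number read counts per gene and, separately, FPKM values scaled to gene length and library total. Groups and replicate numbers came from the titles, doses and times from the study's methods. Counts were analysed with R 4.3.3 and edgeR 4.0.16: filterByExpr, TMM scaling, glmQLFit and glmQLFTest, two-sided, on the 8 libraries of each comparison, with Benjamini-Hochberg adjustment over all genes and a threshold of 0.05. Standard errors came from the F statistic and 95% intervals from the t distribution. Library CPM values used TMM factors over all 12 libraries (0.990 to 1.01), and log2 CPM a prior count of 2. FPKM served for levels and ratios. The steps were tested on simulated counts.

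Members and lists were chosen with earlier results of these data known. From each of the 7 basement membrane lists the text names at most 5 called genes with the largest change per comparison, plus Lamc1, Agrn, Sparc, Pxdn, Serpinh1, Itga6, Itgb1, Dag1 and Mmp2. Col4a4, Col4a6, Timp2, Adamts1, Acta2, Cnn1 and Tagln were named after their values were seen. RefSeq tables gave 10 symbols and 9 promoter windows. Alternatives were DESeq2 1.42.0, RLE factors, no low-count filter, a minimum of 10 counts in each library, a joint fit of the 12 libraries, a block for the replicate number or for the library-name number, replicates 2 and 3 summed, limma 3.58.1 on log2(FPKM + 1) or log2(FPKM + 0.1), and omission of libraries.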

Additional observations from a re-analysis of the deposited data

Results flagged for a closer look

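In 3 of 30 groups of 4 libraries, 1 library lay far from the rest of its group by Dixon's criterion, which chance meets in about 1 in 20 groups. Col4a1 was higher in AngII+HNG replicate 1 (6240 CPM) than in the other HNG libraries, the nearest of which was at 5900 CPM, and it was still below every AngII library. Col15a1 was higher in AngII replicate 4 (408 CPM, the nearest at 341 CPM), and Nid1 was lower in AngII+MOTS-c replicate 4 (2376 CPM, the nearest at 2472 CPM). The effects of the peptides differed for 2 members when tested directly with edgeR's quasi-likelihood test, with a log2 difference between HNG and MOTS-c of -0.19 for Col4a1 and -0.20 for Nid1.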

How the results depend on the processing

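All members kept the sign of their log2 fold change with HNG, against either other group, under all 19 alternatives. Nid1 kept its call in 19 of 19 against AngII (adjusted p up to 0.0211) and against MOTS-c (up to 0.0377), and Col4a1 in 17 of 19 of each, losing it with limma on FPKM (up to 0.0588 and 0.0718). Against AngII, 5 members were called with DESeq2 (1192 of 18043 genes), 5 with the replicate block (1111 of 14524), 4 with the block by library-name number (1113) and 1 with either limma setting (640 and 644). Genes called were 577 with replicates 2 and 3 summed, 541 without replicate 4 of both groups and 431 to 932 when single libraries were left out, where 2 to 4 members were called (4 without AngII+HNG replicate 3). With limma on log2(FPKM + 1) 430 genes were higher and 210 lower, against 494 and 375. For MOTS-c against AngII, 0 members were called under any alternative, and the genes called were 4 with DESeq2, 2 with the replicate block, 0 with all 12 libraries, with summing or without replicate 4, and 0 to 3 when single libraries were left out. Between the peptides, 1034 genes and 5 members were called with DESeq2, 975 and 4 with all 12 libraries, 1054 and 4 with the replicate block, 377 genes without replicate 4, 1 member with either limma setting (316 genes higher and 121 lower, against 381 and 256), and 322 to 625 genes and 2 to 4 members when single libraries were left out (4 without AngII+MOTS-c replicate 4). Col15a1 passed the threshold with the replicate block and the block by library-name number (adjusted p 0.00313 and 0.00290 against AngII, 3.46e-04 and 0.0135 against MOTS-c) and missed it with replicates 2 and 3 summed (0.227 and 0.176). Lama4 passed against MOTS-c with the replicate block (0.0158) but not with the block by library-name number (0.132) or summing (0.198). Against AngII, Col4a2 passed with both blocks (0.0421 and 0.0386) and Col4a5 with the replicate block alone (0.0464), and summing lost both (0.0835 and 0.141). By CPM in place of FPKM, Hspg2 took place 3 and Nid1 place 4 of the levels in all groups, and with MOTS-c Lama4 took place 7 and Col15a1 place 8. Same-numbered libraries did not deviate together in every pair (correlations -0.03 to 0.12 for HNG and AngII, 0.02 to 0.13 for MOTS-c and AngII, -0.01 to 0.25 for HNG and MOTS-c), so the replicate numbers were not taken as pairs. For HNG and MOTS-c, replicate 1 does not share a library-name number, and the 3 pairs that do correlated at 0.112, 0.102 and 0.245. In the receptor and collagen modification lists DESeq2 called 5 (1 higher) and 6 genes. With either limma setting Frem1, Tinagl1, P4ha1 and Ext1 also missed the threshold. Causes of these shifts were not tested.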
